A study of Mus musculus with 18 samples.

Results

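The samples described here are PHD3-/- bone marrow macrophages labelled as starved, set against PHD3-/- macrophages labelled as control. They are 6 of the 18 samples of the series, and were chosen by their labels alone: 3 starved and 3 control samples, numbered 1 to 3 in each group. PHD3, encoded by Egln3, is a prolyl hydroxylase that uses oxygen and 2-oxoglutarate to mark HIF alpha subunits for destruction, and its own gene is induced by HIF. Macrophages that lose nutrients or growth factors commonly slow their cell cycle, adjust lipid synthesis through SREBP factors, and draw on lysosomes and autophagy for building blocks. SREBP factors leave the endoplasmic reticulum for the nucleus when sterols are scarce and then switch on cholesterol and fatty acid genes, whereas the DREAM complex and E2F factors hold cell cycle genes silent or switch them on.

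The starved PHD3-/- group and the PHD3-/- control group were both kept at an oxygen label of 20, a number given without a unit. A further PHD3-/- group of 3 samples was kept at an oxygen label of 1 without starvation, and 3 starved and 3 control samples of wild-type macrophages at oxygen 20 are set beside the PHD3-/- samples. All of these cells came from femoral marrow of male C57BL/6J mice aged 8 weeks and were cultured for 7 days with M-CSF, the growth factor that drives marrow cells to macrophages. The labels do not give what was withheld in starvation or for how long, and the animals themselves are described as untreated. The design text speaks of 3 mice, but no label says whether a mouse gave more than 1 of these samples, so p-values measure the spread between these samples only.

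Each sample of 200 ng of RNA was labelled and hybridised to an Agilent mouse expression array. The kit named is a Cy3 kit, while the label field of the samples says biotin. A level is given here as log2 of the processed signal minus that of the array's 75th percentile, so that 0 is the brightness of a probe at that percentile, and a change is starved minus control on that scale with its standard error. Across the 7 arrays of these 6 samples, 58.6% to 63.4% of spots were well above background, no spot was saturated, and starved and control samples of the same number shared a slide, except that the second array of control sample 1 lay on a slide with no starved PHD3-/- sample. PHD3-/- control sample 1 had 2 arrays, which correlated at r = 0.995 and were averaged, and control sample 3 lay farthest from its group, with a root mean square deviation of 0.327 against 0.229 to 0.262 in the other 5 samples. The 15 macrophage marker genes on the array were measured in 6 of 6 samples, with summed linear levels of 557 to 624 in starved and 593 to 602 in control samples.

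Egln3 stood at -2.33, -2.29 and -2.61 in starved PHD3-/- samples, against -3.88, -3.77 and -4.20 in PHD3-/- controls. In wild-type cells Egln3 read -2.19, -2.35 and -2.36 in starved samples and -3.10, -3.51 and -3.77 in controls. The genotypes overlapped in starved samples and met at 1 value in controls: the PHD3-/- minus wild-type difference was -0.11 (95% interval -0.45 to 0.23) in starved and -0.49 (-0.83 to -0.15) in control samples, and neither passed the test over all genes. Where the probe lies relative to the deleted part of Egln3 is not given, so this signal checks nothing about the genotype labels.

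Promoters of 5 genes from lists described later are shown first, because their letters can be read beside the changes described later. Only promoters of list members past the test threshold that hold the motifs named here were eligible, so every match was fixed by this choice. They span 250 bases before to 50 bases after each RefSeq start on GRCm38.p6, are written 5′ to 3′ on the gene's own strand in lower case, and carry in capitals the matches of the motifs named here for that gene. Hmgcs1 (chr13:119690101-119690400, plus strand) makes HMG-CoA for the mevalonate pathway and holds the sterol regulatory element TCACNCCAC. Cdc20 (chr4:118437294-118437593, minus strand), an activator of the anaphase-promoting complex, and Ncapd2 (chr6:125191537-125191836, minus strand), a condensin subunit, hold the cell cycle homology region core TTTGAA and the CCAAT box. Uhrf1 (chr17:56303087-56303386, plus strand), which guides maintenance DNA methylation, holds the E2F site TTCCCGC. Nupr1 (chr7:126625421-126625720, minus strand), a stress-induced chromatin protein, holds the C/EBP-ATF response element TGATGNAA. Matches on the opposite strand appear as the reverse complement.
Hmgcs1: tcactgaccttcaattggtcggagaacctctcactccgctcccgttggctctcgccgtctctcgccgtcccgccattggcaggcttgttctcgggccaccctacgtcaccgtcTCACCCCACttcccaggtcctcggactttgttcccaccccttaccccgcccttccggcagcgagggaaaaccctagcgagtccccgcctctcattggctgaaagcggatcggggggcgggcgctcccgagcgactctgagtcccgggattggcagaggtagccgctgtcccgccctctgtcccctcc
Cdc20: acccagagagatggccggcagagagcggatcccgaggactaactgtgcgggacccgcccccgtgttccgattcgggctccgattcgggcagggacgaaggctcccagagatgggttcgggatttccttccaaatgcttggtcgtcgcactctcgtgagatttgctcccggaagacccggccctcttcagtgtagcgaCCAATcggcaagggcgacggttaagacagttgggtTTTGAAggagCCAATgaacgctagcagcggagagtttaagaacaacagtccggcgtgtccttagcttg
Ncapd2: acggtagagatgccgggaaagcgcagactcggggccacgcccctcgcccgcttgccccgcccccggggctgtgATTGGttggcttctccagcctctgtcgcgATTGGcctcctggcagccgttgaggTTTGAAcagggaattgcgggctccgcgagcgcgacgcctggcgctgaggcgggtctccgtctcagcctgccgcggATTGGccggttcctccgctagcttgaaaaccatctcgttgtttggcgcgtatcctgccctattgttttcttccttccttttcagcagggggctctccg
Uhrf1: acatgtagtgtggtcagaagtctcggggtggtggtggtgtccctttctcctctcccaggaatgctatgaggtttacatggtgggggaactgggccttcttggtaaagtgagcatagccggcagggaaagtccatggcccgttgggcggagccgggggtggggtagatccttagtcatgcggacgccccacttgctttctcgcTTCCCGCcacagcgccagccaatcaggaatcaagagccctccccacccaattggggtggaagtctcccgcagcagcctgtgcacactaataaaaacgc
Nupr1: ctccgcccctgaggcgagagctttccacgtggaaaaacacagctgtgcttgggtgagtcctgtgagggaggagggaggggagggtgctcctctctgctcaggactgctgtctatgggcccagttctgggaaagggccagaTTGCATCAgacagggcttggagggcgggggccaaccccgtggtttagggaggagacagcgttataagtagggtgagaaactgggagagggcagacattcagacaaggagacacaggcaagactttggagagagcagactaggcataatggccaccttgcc

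Starved PHD3-/- macrophages differed from PHD3-/- controls at 2812 of the 20813 genes tested (13.5%; limma, Benjamini-Hochberg adjusted p under 0.05). Of these, 1485 rose (7.13% of genes tested) and 1327 fell (6.38%), and the median change of all genes was 0.01. At least 2-fold changes were seen at 865 genes (4.16%), of which 540 rose (2.59%) and 325 fell (1.56%). Of 2802 called genes with a value on each of the 3 slides, 2783 kept their sign on all 3, as calls made from the same samples favour, and over all genes 9420 had the same sign on all 3. With normexp background correction on the median signal the count was 912, of which 906 were among the 2812.

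**Figure D1:**
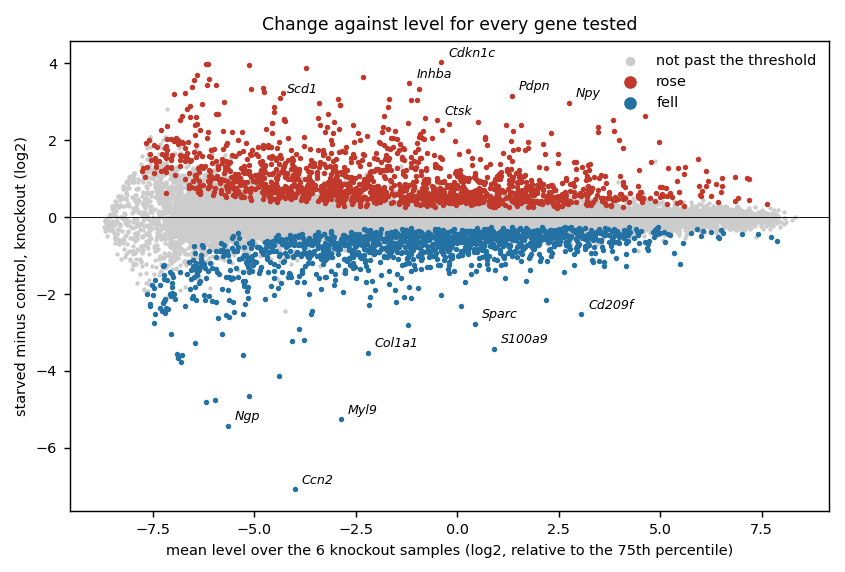
Change in starved minus control PHD3-/- macrophages (vertical axis, log2) against the mean level of the same 6 samples (horizontal axis, log2 relative to the 75th percentile), 1 point a gene, with genes past the threshold coloured. Genes far from 0 lie at low as well as high levels, with Ccn2 lowest and Cdkn1c highest.

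The largest rises among genes measured in all 6 samples were in a cell cycle inhibitor, secreted factors, proteinases and surface proteins. Cdkn1c, which encodes the cyclin-dependent kinase inhibitor p57, read 2.40, 1.17 and 1.27 in starved samples, against -2.21, -2.21 and -2.85 in controls. All 3 starved samples lay far above every control, and the change was 4.04 ± 0.32 or 16.4-fold (limma adjusted p = 1.55e-06). Inhba, the activin A subunit gene, read 0.01, 0.61 and 1.05 in starved samples and -2.81, -2.86 and -3.12 in controls, an 11.2-fold rise with no overlap. Tspan7, a tetraspanin, rose 12.5-fold, with starved samples at -0.53, -0.48 and -0.49 and controls at -4.08, -4.07 and -4.28. The starved samples of Tspan7 were nearly equal to each other.

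Further large rises included Mmp12, macrophage elastase (10.1-fold), and Mmp10, stromelysin 2 (7.85-fold). Pdpn, the surface mucin podoplanin, rose 8.96-fold with levels of 2.65, 3.01 and 3.12 in starved samples and -0.41, -0.21 and -0.10 in controls. Htr2b, a serotonin receptor, rose 8.47-fold; Flrt3, a leucine-rich repeat adhesion protein, 8.42-fold; and Bdh2, a short-chain dehydrogenase, 8.22-fold. Npy, neuropeptide Y, read 3.78, 4.35 and 4.56 in starved samples against 1.48, 1.13 and 1.14 in controls, which made it one of the brighter genes to rise (7.88-fold). Cd109, a TGF-beta co-receptor, rose 7.59-fold. The small GTPase gene Rab15 rose by 3.06 by its brighter probe, but another probe changed by 0.30, so its probes disagree. All 12 were chosen among genes whose starved and control samples did not overlap, which held for starved above control at 15.7% of all genes.

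Some genes were well above background in all starved samples and in no control sample, so their rise has only a lower bound. Cd207, which encodes langerin, a lectin known from Langerhans cells, was at least 7.71-fold higher (starved -3.67, -2.88 and -3.68; control -6.63, -6.59 and -7.02). The engulfment receptor Megf10 was at least 4.46-fold higher, and the semaphorin receptor Plxna4 at least 4.39-fold, with another Plxna4 probe at 1.39 that disagrees. Prl2c5, from a family of near-identical prolactin-like hormones whose signals cannot be separated, was at least 4.24-fold higher, and the secreted protein gene Angptl2 at least 4.08-fold. The calls of Megf10, Plxna4, Prl2c5 and Angptl2 were lost under normexp background correction.

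**Figure D2:**
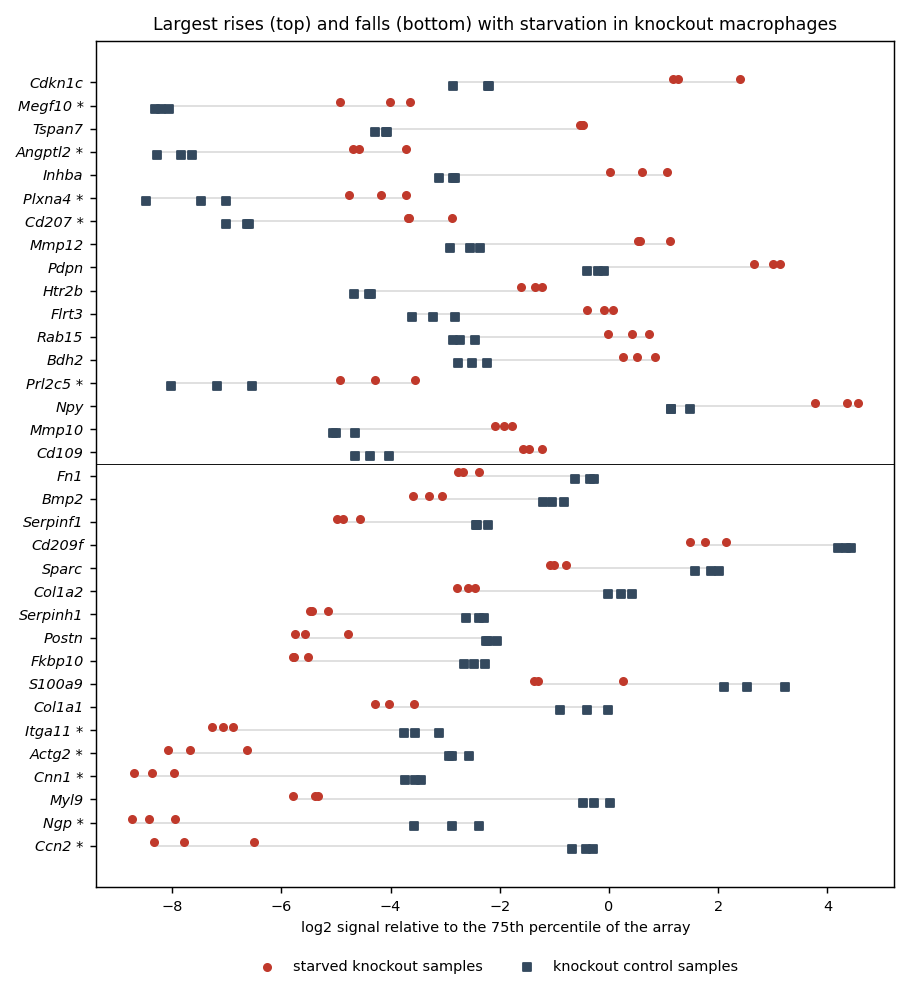
Level of 34 named genes in each sample (horizontal axis, log2 relative to the 75th percentile), red circles for 3 starved and dark squares for 3 control PHD3-/- samples. An asterisk marks genes not well above background in any sample of the dimmer group, and the circles and squares lie apart because genes with overlapping groups were not eligible.

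Among the genes that fell furthest were contractile and collagen-related genes, described here, and neutrophil granule genes, described with the neutrophil markers. Myl9, a myosin regulatory light chain of contractile cells, read -5.33, -5.39 and -5.79 in starved samples, against -0.27, -0.47 and 0.02 in controls. Every starved sample lay below every control, and Myl9 was 38.4-fold lower (change -5.26 ± 0.31, limma adjusted p = 1.13e-07). Ccn2, a secreted matricellular protein and a target of YAP, read -7.79, -8.34 and -6.50 in starved samples, none of them well above background, and -0.42, -0.68 and -0.29 in controls. It was at least 68.5-fold lower, the steepest fall by bound.

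Col1a1 and Col1a2, the chains of type I collagen, were 11.5-fold and 7.00-fold lower. Col1a1 read -4.29, -4.04 and -3.57 in starved samples and -0.41, -0.90 and -0.02 in controls, again without overlap. Serpinh1, the collagen chaperone HSP47, was 7.56-fold lower, Fkbp10, a collagen prolyl isomerase, 9.35-fold, Postn, periostin, 9.11-fold, and Sparc, a collagen-binding protein, 6.83-fold. Serpinf1, a secreted anti-angiogenic serpin, was 5.46-fold lower, Bmp2, a bone morphogenetic protein, 4.89-fold, Fn1, fibronectin, 4.58-fold, and Cd209f, a C-type lectin, 5.76-fold. Lower bounds held for Actg2, smooth muscle gamma actin (at least 13.1-fold lower), Itga11, a collagen-binding integrin subunit (at least 8.78-fold), and Cnn1, calponin 1 (at least 8.20-fold). The calls of Itga11 and Cnn1 were lost under normexp.

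Lists of contractile, SRF and YAP genes, of collagens and of metalloproteinases were added after these falls had been seen. Counts of list members rising or falling against controls, here and below, stand beside 7.13% rising and 6.38% falling over all genes tested. Of 32 contractile, SRF and YAP genes tested, 11 fell and none rose, with a median of -0.27; Acta2, smooth muscle actin, fell by 2.10 and Ccn1 fell by 0.99, while Srf itself changed by -0.23 and Thbs1 by -0.22 without passing the test. Of 23 collagen genes tested, 6 fell and 4 rose (median -0.06), and among the risers Col18a1, the source of endostatin, read 1.83, 1.69 and 1.67 in starved samples against -0.77, -0.75 and -0.68 in controls. Among 17 metalloproteinases and inhibitors, 6 rose and 4 fell (median 0.38). Mmp3, stromelysin 1, rose by 3.89 and Mmp13, a collagenase, by 2.03, whereas the inhibitor Timp1 fell by 1.57. The inhibitor Timp3 was at least 7.13-fold lower, a call lost under normexp. Under normexp these lists gave 5 falling contractile genes, 2 falling and 1 rising collagens, and 1 falling and 6 rising metalloproteinases and inhibitors.

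Markers of other cell types moved beside these genes. Of 17 stromal and endothelial markers tested, 7 fell and 2 rose (median -0.52), and their summed linear level was 5.31 to 7.15 in starved samples against 9.95 to 11.9 in controls. Pdgfra and Tek were not measured in any of the 6 samples, Pdgfrb changed by -0.53 and Dcn by 0.33 without passing the test, and Vwf, von Willebrand factor, rose by 1.93. Lum, lumican, also rose, by 0.67 to 2.42 over the alternatives, but its call was lost in 1 of them. Of 12 neutrophil markers 5 fell and 1 rose (median -0.66), with summed levels of 14.3 to 21.0 in starved samples and 21.5 to 33.2 in controls, which nearly met. The falling genes encode granule and calcium-binding proteins: S100a9 read -1.38, 0.26 and -1.31 in starved samples against 2.52, 3.22 and 2.11 in controls (10.8-fold lower), Ltf, lactoferrin, fell by 4.12, Camp fell by 1.89, and Ngp was at least 12.7-fold lower, a call lost under normexp. The neutrophil marker that rose was Mmp8, a collagenase, by 1.46 to 2.52 over the alternatives, with its call kept in each. S100a8, the partner of S100a9, changed by 0.37 and Elane by 0.35 without passing the test. Fewer cells of a type and less RNA per cell cannot be told apart in bulk samples, and under normexp 5 stromal and 3 neutrophil markers fell. The part of such cells in the collagen, contractile and granule results was not tested.

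Cholesterol genes moved together and upward. Of 29 genes of cholesterol synthesis and uptake, 24 rose and none fell, with a median of 0.96 against 0.01 over all genes. All 29 lay higher in every starved sample than in every control, against 15.7% of all genes tested. By role, 7 of 8 mevalonate pathway genes, 12 of 12 sterol branch genes and 5 of 9 genes of uptake and control rose. The slide medians were 0.74, 1.25 and 0.78 on slides 1, 3 and 4, and the count was 17 to 22 when each of the 6 samples was left out in turn.

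Hsd17b7, a reductase of the sterol branch, read -1.76, -1.42 and -1.54 in starved samples and -2.73, -2.94 and -2.57 in controls (change 1.17 ± 0.14, limma adjusted p = 4.81e-05). Msmo1, the sterol C4 methyl oxidase, read 3.49, 4.01 and 3.71 in starved samples against 2.5, 2.54 and 2.67 in controls. In both genes starved sample 2 was the highest and the groups were well apart. Starved sample 2 was also the highest for Sc5d, a sterol desaturase (1.53, 1.98 and 1.81 in starved samples, 0.72, 0.73 and 0.97 in controls), and for Acat2, which makes acetoacetyl-CoA (change 0.98). Insig1, a sterol-sensing retention protein that is itself an SREBP target, rose by 0.81. Hmgcs1, whose promoter is printed above, rose by 0.84. Mvk (0.55), Stard4 (0.53), Scap (0.34) and Insig2 (0.17) did not pass the test. Hmgcs1 and the genes of this and later lists that stand outside the named-gene rule were picked after their values were seen.

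Of 17 rising cholesterol genes with a promoter sequence, 1 (5.9%) held TCACNCCAC on either strand within the 300 bases, against 1.4% of all 27025 genes with a promoter. That gene was Hmgcs1, the only match among all 20 members tested with a promoter (5.0%). Fatty acid synthesis genes gave 7 rising and none falling of 16, with a median of 0.40. Scd1, stearoyl-CoA desaturase 1, read -3.40, -1.89 and -3.19 in starved samples and -5.93, -5.91 and -5.93 in controls, and Scd2, its homologue, 4.69, 5.68 and 4.91 in starved samples against 2.44, 2.55 and 2.71 in controls. Starved sample 2 was again the highest in both. Fasn (0.33), which builds the chain, Acly (0.18) and Acaca (-0.07), which make its precursors, did not pass the test, and the count was 4 without starved sample 2 or without control sample 2, and 3 under normexp. Of 10 LXR targets and efflux genes 4 rose and none fell (median 0.28), among them Abca1, the cholesterol exporter (0.89), and Mylip, a ubiquitin ligase (0.74).

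**Figure D3:**
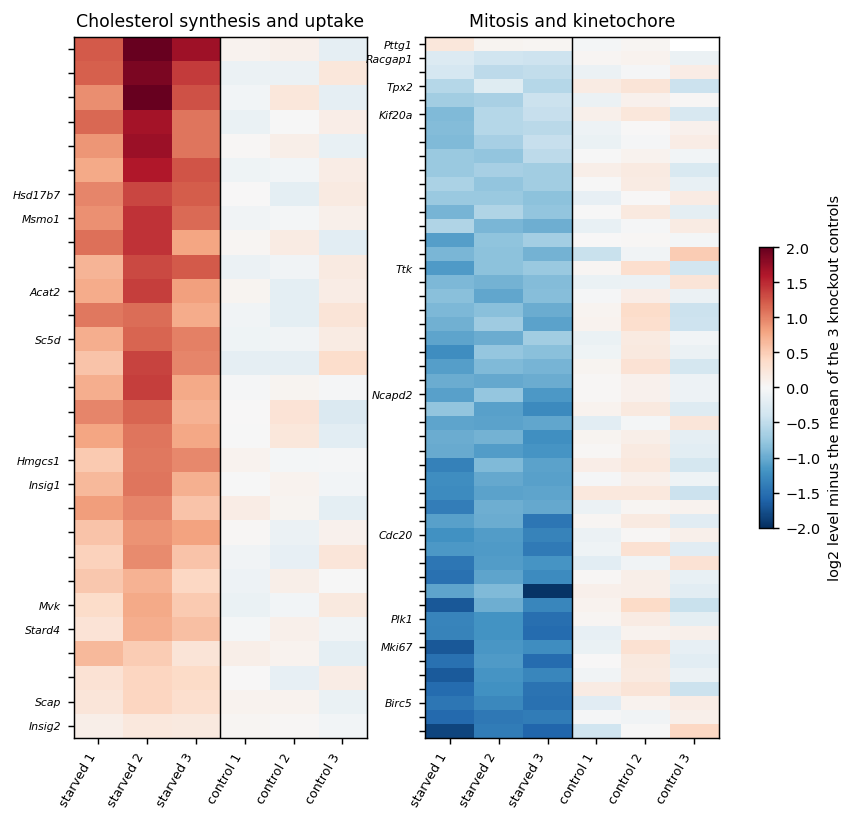
Heat map of the cholesterol genes and the mitosis genes, 1 row a gene (labelled where the text names it) and 1 column a sample with the 3 starved PHD3-/- samples left of the 3 controls. Colour is the level minus the mean of the 3 controls (log2, clipped at 2 either way): cholesterol rows are higher and nearly all mitosis rows lower in the starved columns.

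Cell division genes moved the other way. Of 50 mitosis and kinetochore genes, 45 fell and none rose, with a median of -1.0; 48 lay lower in every starved sample than in every control, against 14.9% of all genes tested. Kinases and cyclins fell in 14 of 15, and spindle, kinetochore and condensin genes in 31 of 35. The slide medians were -1.09, -1.08 and -0.98. Leaving out each sample in turn gave 36 to 43 falling genes, and normexp gave 28.

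Cdc20 read 0.12, 0.21 and 0.01 in starved samples, against 1.21, 1.36 and 1.43 in controls (change -1.22 ± 0.11, limma adjusted p = 2.99e-06). Birc5, survivin, read 1.89, 2.05 and 1.84 in starved samples and 3.12, 3.42 and 3.49 in controls. In both genes the groups lay about 1 log2 unit or more apart. Plk1, polo-like kinase 1, fell by 1.34, Ncapd2 fell by 1.00, and Mki67, the Ki-67 gene, fell by 1.36. The members that did not pass the test were Ttk (-0.90), Kif20a (-0.64), Tpx2 (-0.46), Racgap1 (-0.36) and Pttg1 (0.10).

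Of 38 falling mitosis genes with a promoter sequence, 25 (65.8%) held TTTGAA, against 20.2% of all genes with a promoter, and 31 (81.6%) held CCAAT, against 41.1%. Over all 41 mitosis members tested with a promoter, falling or not, the shares were 65.9% for TTTGAA and 80.5% for CCAAT. The Cdc20 and Ncapd2 sequences printed above hold both motifs because they were picked to do so. Neither motif contains the other, and this and every other motif was searched on both strands. A match describes these letters and does not show that a factor binds there.

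DNA replication and nucleotide synthesis genes gave 28 falling and 1 rising of 56, with a median of -0.52. Tk1, thymidine kinase, read 0.25, 0.61 and 0.32 in starved samples and 1.79, 1.87 and 2.27 in controls (change -1.59 ± 0.18, limma adjusted p = 3.05e-05). Uhrf1 read 0.92, 1.02 and 1.07 in starved samples, against 2.16, 2.12 and 2.19 in controls. Each group spanned a narrow range and the groups were about 1 log2 unit apart or more. Pole, the leading-strand polymerase subunit, fell by 0.98, Gins2, a helicase subunit, fell by 0.70, and Mcm2 to Mcm7 fell by 0.68 to 1.07. Tyms, thymidylate synthase, rose by 0.90. Pcna (-0.08), Dnmt1 (-0.04) and Cdt1 (0.06) did not pass the test. Of 24 falling replication genes with a promoter sequence, 10 (41.7%) held the E2F site TTCCCGC as Uhrf1 does, against 5.3% of all genes, and 6 (25.0%) held the form TTGGCGC, against 2.8%. Over all 47 replication members tested with a promoter, falling or not, the shares were 36.2% for TTCCCGC and 27.7% for TTGGCGC. Under normexp 17 of the 56 fell.

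Of 20 DNA repair and checkpoint genes 14 fell and none rose (median -0.71), with Rad51ap1, a protein of recombination repair, at -0.34, -0.28 and -0.28 in starved samples and 0.83, 0.89 and 1.15 in controls. The count was 9 without starved sample 1 or without control sample 2, and 4 under normexp. Among 29 CDK inhibitors, cyclins and E2F genes 2 rose (6.9%), near the 7.13% of all genes. In the same list 4 fell (13.8%, against 6.38% of all genes), and the median was -0.21. Cdkn1a, the p21 gene, rose by 0.83 beside Cdkn1c, while Cdkn2c, p18, fell by 0.66, Ccne1, cyclin E1, fell by 0.82, and E2f8, an atypical repressor, fell by 0.95. The probes of E2f7 disagree (-1.20 and 0.12). Cdkn1b (-0.17), Ccnd1 (0.41), E2f1 (-0.23) and Rb1 (-0.02) did not pass the test.

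**Figure D4:**
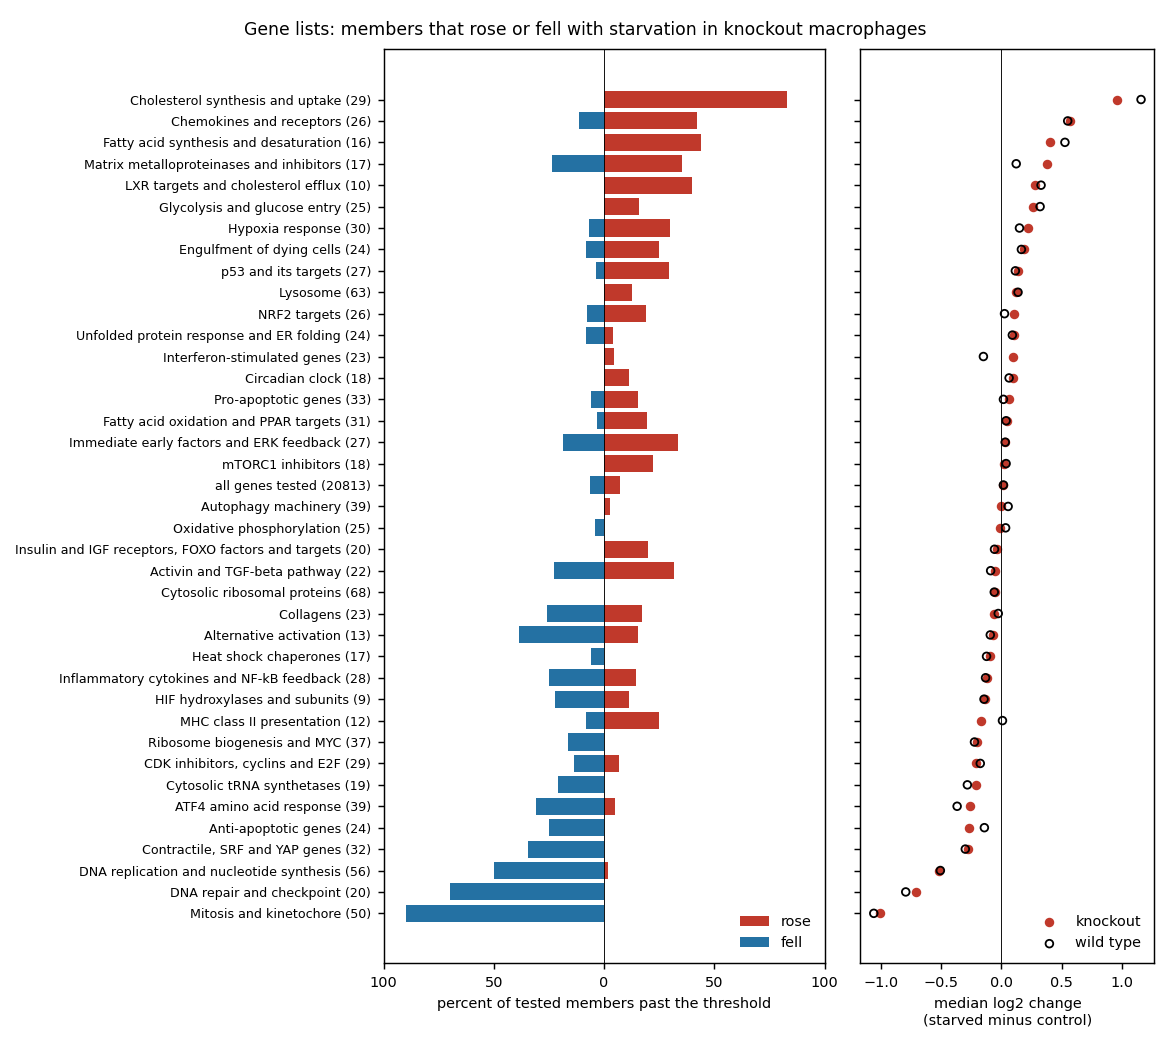
Share of each gene list that rose or fell in starved PHD3-/- macrophages (bars, percent of members tested) and the list's median change (log2), filled for PHD3-/- and open for wild type. The mitosis list has the highest falling share (90.0%) and the cholesterol list the highest rising share (82.8%).

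Genes of the response to amino acid shortage fell more often than they rose. Of 39 ATF4 amino acid response genes, 12 fell and 2 rose, with a median of -0.26, and the amino acid synthesis enzymes fell in 7 of 14. Nupr1 read 2.77, 3.27 and 3.04 in starved samples, against 4.16, 4.28 and 4.13 in controls (change -1.17 ± 0.12, limma adjusted p = 1.19e-05). Aldh1l2, a mitochondrial folate dehydrogenase, fell by 1.63, Shmt2, mitochondrial serine hydroxymethyltransferase, fell by 0.71, and Slc7a5, a large neutral amino acid transporter, fell by 1.02, with another Slc7a5 probe at -0.11. Atf4 (-0.30), Ddit3 (-0.12), Sesn2 (0.10) and Atf3 (0.01) did not pass the test. The genes that rose were Vldlr, a lipoprotein receptor (0.43, a call lost in several settings), and Ddit4, an inhibitor of mTORC1 also known as REDD1, which read 2.63, 2.0 and 2.18 in starved samples and 1.41, 1.29 and 1.50 in controls. Without starved sample 3, 8 of the 39 fell. The rising count was 1 without starved sample 1, 2 or 3 or control sample 3. The element TGATGNAA was in 3 of 8 falling members with a promoter (37.5%), in 10 of 33 members tested (30.3%) and in 4.5% of all genes.

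Related stress and growth lists lay on both sides of the shares over all genes (7.13% rising, 6.38% falling). Of 19 cytosolic tRNA synthetases 4 (21.1%) fell and none rose (median -0.21), and Yars, which charges tyrosine tRNA, fell by 0.69, a call lost under normexp. Of 24 unfolded protein response genes 1 rose and 2 fell (median 0.10), including the sensor Atf6 (-0.67), while the chaperone Hspa5 changed by 0.00. The falling count was 1 without starved sample 2 or 3 or control sample 1 or 2, and none rose without starved sample 2 or 3. Of 17 heat shock chaperones 1 fell (median -0.09), and none without starved sample 2 or 3 or control sample 1 or 3. Of 18 mTORC1 inhibitors 4 (22.2%) rose (median 0.02), but 2 without starved sample 3; beside Ddit4 stood Ddit4l, its homologue (0.89, a call lost under normexp). Of 37 ribosome biogenesis and MYC genes 6 (16.2%) fell (median -0.20), with Myc at -0.93, -0.24 and -0.17 in starved samples and 0.63, 0.50 and 0.44 in controls; the count was 3 without starved sample 1, starved sample 2 or control sample 2. None of 68 cytosolic ribosomal protein genes passed the limma test (median -0.06), 2 had an unadjusted p under 0.05, and 1 passed when control sample 2 was left out. Under normexp 1 tRNA synthetase, 1 unfolded protein response gene and 3 ribosome biogenesis genes fell and 1 mTORC1 inhibitor rose.

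Of 20 genes of insulin and IGF signalling and FOXO, 4 rose and none fell, a median of -0.03. Igf1, insulin-like growth factor 1, read 5.12, 5.08 and 5.08 in starved samples, against 3.88, 3.74 and 4.02 in controls, and its starved samples hardly differed. Sgk1, a kinase downstream of PI3K, rose by 0.85. Irs2 (0.00), Foxo3 (-0.40) and Txnip (-0.22) did not pass the test. The FOXO element GTAAACA was in 0 of 3 rising members with a promoter, in 1 of 15 members tested (6.7%) and in 4.1% of all genes. Under normexp 2 of the 20 rose.

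Few autophagy genes passed the test, and 12.7% of lysosome genes rose, against 7.13% of all genes. Of 39 autophagy genes only Atg13, a subunit of the ULK initiation complex, rose (0.54), and the list median was -0.005; the count was 3 without control sample 1 and 2 without starved sample 2. Of 63 lysosome genes 8 rose and none fell, with a median of 0.13, and 6 rose under normexp. Ctsk, cathepsin K, read 0.93, 0.76 and 0.65 in starved samples, against -1.96, -1.73 and -1.57 in controls (change 2.53 ± 0.17, limma adjusted p = 4.36e-07). Atp6v0d2, a proton pump subunit found in osteoclasts and some macrophages, read -1.47, -1.20 and -1.39 in starved samples and -3.80, -3.29 and -3.56 in controls. Both stood well apart, whereas Ctsl, cathepsin L, among the brighter genes on the array, rose by 0.85, Scarb2 by 0.92 and the MiT-family factor Tfec by 0.82. The CLEAR box GTCACGTG, which contains the E-box CACGTG, was in 1 of 7 rising members with a promoter (14.3%) and in 13 of 51 members tested (25.5%), against 2.5% of all genes.

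Ctsk and Atp6v0d2 are also osteoclast markers. Of 12 osteoclast markers 5 rose (list median 0.10), among them Itgb3, the vitronectin receptor subunit (2.12, with another probe at 0.83 that disagrees). Mmp9 fell by 0.63, a call lost without starved sample 1 or without any of the controls, and Nfatc1 (0.01), Calcr (-0.59) and Acp5 (-0.44) did not pass the test. The summed level of the 12 was 48.9 to 61.1 in starved samples and 63.5 to 77.9 in controls. Under normexp 3 of the 12 rose.

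Part of the HIF target list rose, with the same oxygen label in both groups. Of 30 hypoxia response genes 9 rose (30%, against 7.13% of all genes). The 2 that fell (6.67%) were near the 6.38% of all genes. The list median was 0.22 (0.20 with members at their bound). In 16 of the 30 every starved sample lay above every control, against 15.7% of all genes. Hilpda, a lipid droplet protein, read 1.86, 1.53 and 1.61 in starved samples, against 0.51, 0.57 and 0.37 in controls (change 1.18 ± 0.10, limma adjusted p = 2.66e-06). Ankrd37 rose by 1.24, the repressor Bhlhe40 by 1.90, the adenylate kinase Ak4 by 1.26 and the mitophagy receptor Bnip3l by 0.70. Egln3 itself, described above, rose by 1.54 ± 0.16 (limma adjusted p = 1.47e-05), with its other probe at 1.48. Bnip3 (0.28), Adm (0.24), Ndrg1 (-0.32), Pfkfb3 (0.08) and Car9 (-0.09) did not pass the test. The hypoxia response element ACGTGC, which can overlap the E-box CACGTG, was in 3 of 7 rising members with a promoter (42.9%). Over all members tested it was in 12 of 22 with a promoter (54.5%), against 6.7% of all genes. The falling count was 1 without starved sample 1, 2 or 3, or without control sample 1 or 2, and none fell under normexp.

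Of 9 HIF hydroxylases and subunits (median -0.13), Egln3 rose while Egln2, PHD1, fell by 0.47 (4.98, 4.98 and 5.05 in starved samples, 5.48, 5.38 and 5.56 in controls). Hif3a fell by 0.91 by its brightest probe, but its other probes changed by 0.02 and 0.19. Egln1 (-0.38), Hif1an (-0.13), Hif1a (0.34), Epas1 (0.15) and Vhl (0.08) did not pass the test, and the Arnt probes disagree (-0.23 and 0.55). The calls of Egln2 and Hif3a are sensitive to single samples: 1 of the falling pair was lost without starved sample 2 or control sample 3. Of 25 glycolysis genes 4 rose (median 0.26), with the aldolase gene Aldoc at 1.36, 1.64 and 1.11 in starved samples and 0.13, -0.27 and 0.32 in controls. Of 31 fatty acid oxidation and PPAR genes 6 rose and 1 fell (median 0.05). Fabp4, a fatty acid carrier, read 2.58, 2.81 and 2.80 in starved samples against 0.81, 0.90 and 0.58 in controls, and Acaa2, a thiolase, rose by 0.51. The rising count was 3 without starved sample 1, starved sample 3, control sample 1 or control sample 3, and 2 without control sample 2, and the falling count was 0 without starved sample 1 and 2 without starved sample 3. Of 25 oxidative phosphorylation genes 1 fell (median -0.01), and none fell without starved sample 2 or 3 or control sample 2 or 3. Under normexp 2 glycolysis genes and 2 fatty acid oxidation genes rose.

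Lists of cell death regulators are set beside the shares over all genes (7.13% rising, 6.38% falling). Of 33 pro-apoptotic genes 5 rose (15.2%) and 2 fell (6.06%, near the share over all genes), with a median of 0.07. Of 24 anti-apoptotic genes 6 fell (25%) and none rose (median -0.27). Bcl2l11, the BH3-only protein BIM, read -0.14, -0.67 and -0.51 in starved samples, against -1.79, -1.66 and -2.06 in controls (change 1.4 ± 0.18, limma adjusted p = 0.000107). Bcl2a1d, from a family of near-identical survival genes whose signals cannot be separated, fell by 1.22, and the ubiquitin ligase gene Birc3 fell by 0.67. Fas, the death receptor, also fell, by 0.89, while Bcl2 (0.05) and Mcl1 (0.01) did not pass. The anti-apoptotic count was 4 falling and 1 rising without starved sample 2, and 3 falling without control sample 2. Of 27 p53 pathway genes 8 rose (29.6%) and 1 fell (3.7%), with a median of 0.14. The risers included Mdm2 (0.79), Phlda3 (0.90) and Plk2 (1.05), while Trp53 (-0.06) and Bax (0.09) did not pass. Under normexp 4 p53 pathway genes and 2 pro-apoptotic genes rose.

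Immune lists are set beside the shares over all genes (7.13% rising, 6.38% falling). Of 26 chemokines and receptors 11 rose (42.3%) and 3 fell (11.5%), with a median of 0.57. Cxcr4, the CXCL12 receptor, read -0.02, 0.06 and 0.01 in starved samples, against -2.36, -2.30 and -2.64 in controls (change 2.45 ± 0.16, limma adjusted p = 2.35e-07). Ccl7, a monocyte attractant, read 4.41, 5.29 and 5.22 in starved samples and 3.35, 3.65 and 2.52 in controls. Neither gene overlapped between groups, though the Ccl7 controls were widely spread. Cxcl2 fell by 1.70, Ccl6 fell by 0.93 and Cxcl10 fell by 1.02. Without starved sample 3 the rising count was 7, and under normexp it was 6.

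Of 28 inflammatory genes 4 rose (14.3%, against 7.13% of all genes) and 7 fell (25%, against 6.38%), with a median of -0.12. Il1rn, the interleukin 1 receptor antagonist, read 0.61, 0.41 and 0.45 in starved samples and -2.07, -1.86 and -2.36 in controls, a change of 2.59 ± 0.22. Ptgs2, cyclooxygenase 2, rose by 1.07, while Il6 fell by 1.10 and Tnf fell by 0.75. Il1b changed by 0.61 and Nfkbia by -0.36 without passing the test. Of 23 interferon-stimulated genes (median 0.10) 1 rose (4.35%, below the share over all genes). It was Oasl2 (0.51), a call lost when starved sample 1 or 2 or any of the controls was left out. Of 12 MHC class II genes (median -0.17, or -0.11 with members at their bound) 3 rose (25%) and 1 fell (8.33%), the co-stimulator Cd40 by 1.04. In that list 2 rose and 2 fell without starved sample 1, and none rose and 1 fell under normexp. Of the inflammatory genes 2 rose and 3 fell under normexp.

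Of 13 alternative activation genes 2 rose (15.4%, against 7.13% of all genes) and 5 fell (38.5%, against 6.38%), with a median of -0.065. Mrc1, the mannose receptor, rose by 1.39 and Klf4 by 0.74, while Fn1 and Cd209f fell as described. Arg1 changed by 1.22 without passing the test. The falling count was 3 without starved sample 1 or 2 or control sample 2 or 3. Of 24 engulfment genes 6 rose (25%) and 2 fell (8.33%), with a median of 0.19 (0.14 with members at their bound). Mfge8, which bridges dying cells to integrins, read 6.04, 5.91 and 5.94 in starved samples against 4.17, 3.88 and 3.95 in controls, 1.96 ± 0.20 higher. Msr1, scavenger receptor A, rose by 0.71, and Marco, another scavenger receptor, fell by 0.63, while Mertk (-0.18) and Axl (-0.19) did not pass. Under normexp 3 engulfment genes rose and 1 fell, and 3 alternative activation genes fell.

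Signalling genes next to activin split. Of 22 activin and TGF-beta pathway genes 7 rose (31.8%, against 7.13% of all genes) and 5 fell (22.7%, against 6.38%), with a median of -0.05. Tgfbi, a secreted TGF-beta-induced protein, read 4.70, 5.41 and 4.88 in starved samples and 2.79, 3.12 and 2.33 in controls, and Tgfbr1 rose by 0.91, while Tgfb1 changed by -0.35 without passing. The falling count was 3 without starved sample 1 or 2 or control sample 1 or 2, and 4 genes rose without control sample 2. Under normexp 3 rose and none fell. Of 27 immediate early and ERK feedback genes 9 rose (33.3%) and 5 fell (18.5%), with a median of 0.03. Dusp4, an ERK phosphatase, read 0.34, -0.01 and 0.17 in starved samples, against -1.65, -1.96 and -2.06 in controls; Dusp6 rose by 1.25, Egr2 by 1.03 and Fos by 0.92, while Maff fell by 1.24 and Egr1, a zinc finger factor, by 1.12. Of the 27, 3 fell without starved sample 1 or control sample 1, and 2 without starved sample 2 or 3 or control sample 2, and under normexp 5 rose and 3 fell. Of 18 clock genes (median 0.10) the repressors Bhlhe40 and Bhlhe41 rose (1.90 and 1.64), which is 11.1% of the list. A clock gene fell when starved sample 1 was left out, and Per1 (0.12), Nr1d1 (-0.03) and Dbp (-0.52) did not pass.

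Of 26 NRF2 targets 5 rose (19.2%, against 7.13% of all genes) and 2 fell (7.69%, near the 6.38% of all genes), with a median of 0.11. Nqo1, a quinone reductase, stood at -1.75, -2.98 and -2.44 in starved samples and -3.49, -3.66 and -3.56 in controls. Gsta1, at least 2.87-fold higher, has a near-identical copy and is uncertain. Hmox1 (0.12) and Gclc (0.02) did not pass, none of the 26 passed under normexp, 3 rose without starved sample 1 or control sample 2, and none fell without starved sample 2 or 3 or control sample 1 or 3. Of 15 macrophage markers 3 rose (20%) and 1 fell (6.67%, near the share over all genes), with a median of -0.05. Emilin2 fell by 0.94, while Csf1r (0.22), Adgre1 (-0.16) and Itgam (-0.30) did not pass. Without starved sample 2 or control sample 3 only 1 macrophage marker rose. Of 8 lymphocyte markers 1 rose and 2 fell (median 0.015; at most 1 each way when a sample was left out), and their summed levels were 10.2 to 11.4 in starved samples and 10.3 to 12.2 in controls, with Cd3d, Cd79a, Cd8a and Ncr1 not measured. Of 8 dendritic cell markers 1 fell and, without starved sample 3, 1 rose (median 0.17; summed levels 152 to 156 in starved and 137 to 152 in control samples; Clec9a and Xcr1 not measured), and of 6 mast cell, basophil and eosinophil markers none passed by limma and 1 had an unadjusted p under 0.05 (median 0.17; summed levels 1.05 to 1.24 in starved and 0.895 to 0.996 in control samples), with Cpa3 and Mcpt8 not measured. Of 7 erythroid and megakaryocyte markers 2 fell (median -0.72; 1 without starved sample 2 or 3 or control sample 1), including Epor (-0.89), with summed levels of 10.5 to 13.5 in starved samples and 6.82 to 7.58 in controls, and Gata1 not measured. Under normexp 1 macrophage marker rose and 1 fell, and no lymphocyte, dendritic or erythroid marker passed by limma.

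Whether the response depended on PHD3 is asked by the difference between the responses of the genotypes. No gene passed the threshold for PHD3-/- minus wild-type response (limma interaction, 0 of 20813, 0%), and 216 genes had an unadjusted p under 0.05, or 76 to 406 over the alternatives, none of which gave a call. In wild-type cells 2602 genes (12.5%) differed between starved and control samples, 1350 rising (6.49%) and 1252 falling (6.02%). The genotypes share no samples in these comparisons, and 1096 rising and 976 falling genes were called in both, which is 73.7% of the PHD3-/- calls and 79.6% of the wild-type calls; 0 were called in opposite directions. The wild-type count was 1695 without wild-type starved sample 1. Direct comparison of PHD3-/- with wild type gave 0 of 20813 genes in starved and 0 in control samples (0%) by limma, where 394 and 290 genes had an unadjusted p under 0.05.

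The leading genes changed in the same direction in both genotypes. Cdkn1c changed by 4.04 in PHD3-/- and 3.68 in wild-type cells, with a difference of 0.35 (95% interval -0.63 to 1.33). Cdc20 changed by -1.22 in PHD3-/- and -1.28 in wild-type cells (interval of the difference -0.27 to 0.38), and Egln3 changed by 1.54 in PHD3-/- and 1.16 in wild-type cells (-0.10 to 0.86). The list medians were 0.96 in PHD3-/- and 1.16 in wild type for cholesterol genes, and -1.0 in PHD3-/- and -1.06 in wild type for mitosis genes. A missed threshold does not show equal responses, and these intervals give the differences that remain possible.

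The genes with the smallest interaction p were Paqr3, Cnn2 and 3 transcripts without a symbol. Cnn2, calponin 2, was the bright member. It read 2.29, 2.46 and 2.33 in starved and 2.92, 3.14 and 2.91 in control PHD3-/- samples, against 2.46, 2.57 and 2.52 in starved and 2.32, 2.72 and 2.48 in control wild-type samples. The PHD3-/- groups did not overlap and the wild-type groups did, with a difference of -0.64 (95% interval -0.97 to -0.32) that had an adjusted p of 1.00 by limma. Paqr3, a Golgi membrane protein, changed by -0.60 in PHD3-/- and 0.75 in wild-type cells, and was near background.

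**Figure D5:**
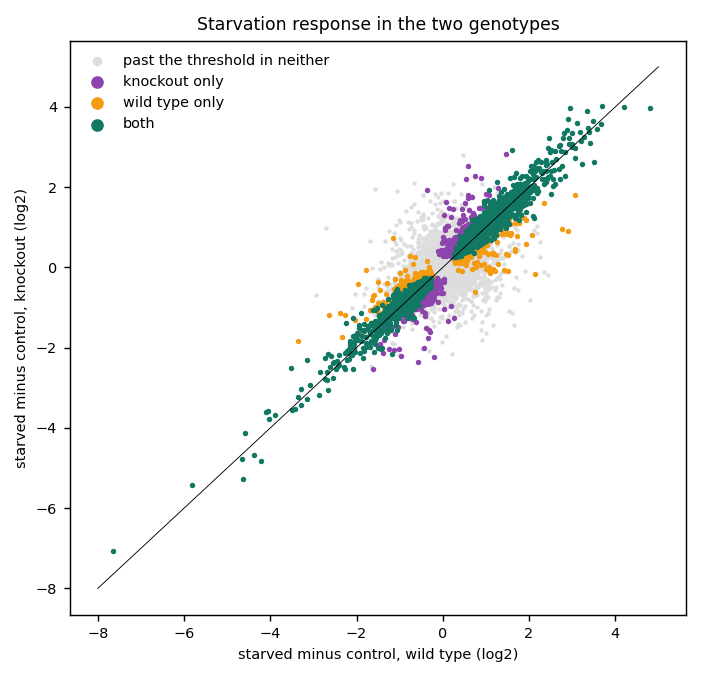
Change on starvation in PHD3-/- (vertical axis) against wild-type macrophages (horizontal axis), both log2 starved minus control, 1 point a gene, coloured by the genotype in which the gene passed the threshold. Genes called in both genotypes lie along the line of equal change, and none lies in the upper left or lower right.

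Starved PHD3-/- cells were also compared with PHD3-/- cells at oxygen 1, a contrast that does not use the control samples. The genes named first are the furthest apart among those well above background in every sample of both groups, without overlap. It called 7719 genes (37.1%), of which 3721 were higher in starved cells (17.9%) and 3998 lower (19.2%). Mmp3 read -2.14, -1.74 and -1.44 in starved samples against -5.67, -5.52 and -6.48 at oxygen 1, 4.12 higher. Psrc1, a spindle protein (3.29), Ccl7 (3.1), Syngr1, a synaptic vesicle protein (2.80, with disagreeing probes against the controls), Tmem26 (2.76) and Gask1b (2.76) were the next furthest above. Mgarp, a mitochondrial protein, read -4.94, -5.54 and -5.72 in starved samples and 3.47, 3.40 and 3.19 at oxygen 1, a difference of -8.75. Rcor2, a corepressor (-5.81), Plod2, a collagen lysyl hydroxylase (-5.55), Ak4 (-5.30), Egln3 (-5.25) and the cytokine gene Il19 (-4.96) followed.

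HIF targets stood lower in starved cells than in cells at oxygen 1: of 30 hypoxia response genes 23 were lower and 3 higher, with a median of -2.67. Egln3 read 2.84, 2.98 and 2.71 at oxygen 1, far above the starved values given earlier. Of 25 glycolysis genes 17 were lower and 2 higher. Cholesterol genes were higher in starved cells in 26 of 29 (median 1.48) and lower in 1, and replication genes were higher in 42 of 56 (median 0.80) and lower in 1. Mitosis genes were higher in 30 of 50 and lower in 1, with a median of 0.55. Cdkn1c was 1.46 higher in starved cells, and Bdh2 (-0.16) and Htr2b (-0.03) did not pass the test there. The normexp count for this comparison was 3749.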

How the data were processed

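Agilent 1-colour arrays of 18 samples were used, 3 in each of 6 groups, with 20 arrays in all because some samples had more than 1. The authors deposited processed signal intensity per spot from Agilent Feature Extraction 10.7.3.1, per the file headers, already background-subtracted, and a table of log2 values on a scale whose normalization no header names. The deposited column of PHD3-/- control sample 1 correlated at r = 1 with the first of its arrays. Per the submitters' processing notes limma was used.

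Here log2 of the processed signal minus each array's 75th percentile was taken, spots flagged as outliers and control spots were left out, spots of a probe and arrays of a sample were averaged, and the brightest probe stood for a gene. A gene was tested when well above background in at least 3 samples with at least 2 values in every group. limma 3.58.1 in R 4.3.3 fitted 6 group means without a block, two-sided, threshold 0.05 after Benjamini-Hochberg over 20813 genes, 14008 of them with a symbol. The fit had 12 residual and 2.48 prior degrees of freedom. Missing values (0.117%) stayed missing. Lower bounds of a fold set the brighter group's mean against the higher of the dim probe and the lowest signal well above background. Same-numbered starved and control PHD3-/- samples deviated together at r = 0.06, 0.25 and 0.14. Differently numbered ones did so at r = -0.17 to 0.01, each below the same-numbered values. The numbers match samples by slide at most and no pairing is known. The main fit therefore did not take them as pairs, and a replicate block was run as an alternative. The procedure was tested on simulated data. The precision is limited by the number of arrays.

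Members and gene lists were chosen with earlier results of these data known, and no set test was run. Named genes are Egln3 and the HIF hydroxylases and subunits, the 12 largest rises and falls measured in all samples without overlap, the 5 largest each way by bound, up to 4 members each way of a list by adjusted p and 1 for each role, the 5 smallest p of the interaction, and the 6 largest each way against oxygen 1. Some genes of the lists are not reported here by name. Promoters of 849 of 1088 listed members were found in RefSeq (GRCm38.p6). Alternatives were background correction, scaling, the deposited log2 table, filters, the choice of array and probe, slide and replicate blocks, and leaving out each sample.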

Additional observations from a re-analysis of the deposited data

How the results depend on the processing

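Starved against control PHD3-/- cells gave 912 genes with normexp on the median signal, 521 rising and 391 falling. When only the 6 samples of the comparison were fitted they gave 1886 genes, 1025 rising and 861 falling, against 2812 in the main fit. With each sample left out the counts were 2008 to 2242 in all, 1102 to 1237 rising and 906 to 1064 falling. Under normexp the wild-type response gave 1118 genes (701 rising, 417 falling) and starved against oxygen 1 gave 3749 (1821 higher, 1928 lower). With a sample left out, the wild-type response gave 1695 to 2565 in all, 899 to 1388 rising and 796 to 1177 falling, and starved against oxygen 1 gave 6086 to 7067, 2853 to 3425 higher and 3233 to 3741 lower. Median scaling shifted the rising share of PHD3-/- calls to 44.8%, against 52.8%, and of wild-type calls to 39.3%, against 51.9%. Normexp moved the median of all wild-type changes to 0.18, and the cause was not tested. The replicate block gave 2489 genes for PHD3-/- cells, 2150 of them among the 2812, and the slide block 2587; the replicate numbers are a shared label, not a known pairing. Of 215 named genes past the threshold, 120 kept their call in every setting run, 85 lost it under normexp, and 39 lost it when only the samples of the comparison were fitted. The interaction gave 0 calls in every setting, and no named result changed sign past the threshold. Normexp on the mean signal was not run because the files hold only the median signal, and the median was chosen after seeing the data. The difference of Egln3 between genotypes did not pass in any setting run for it. Probes near background limit what can be said of dim genes.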
